A study of Mus musculus with 9 samples.

Results

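The libraries compared here came from mouse epiblast stem cells of a line derived in the Wnt inhibitor IWP2 and later kept without it (IWP2_removed, 2 libraries), set against the control line that is labelled with no inhibitor (control, 2 libraries). They were 4 of the study's 9 libraries, chosen by their labels and not by any measured value. Both groups are labelled as grown in Activin A and FGF2 with no inhibitor. The treatment protocol states 20 ng/mL and 10 ng/mL of these factors. As labelled, the medium at harvest was thus the same and the history of the line differed. Libraries of cells still kept in 5 µM IWP2 (IWP2, 2 libraries) are given beside the compared groups for named genes. Whether they share a line with IWP2_removed is not labelled. The study also holds 3 libraries of a Dkk1 knockout line (Dkk1_KO), which were not used in the fit. Each library carries a letter, B or C. The labels do not say what a letter marks, nor how many embryos, clones or separate cultures stand behind a group. P-values therefore measure only the spread between these libraries, which may be technical. The ratios below pair B with B and C with C, and a gene is described as higher or lower in both letters only where both ratios had the same sign and were at least 2-fold.

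Epiblast stem cells are pluripotent cells taken from the epiblast of the implanted embryo. They depend on Activin/Nodal and FGF signals, and in culture they carry low levels of genes of the germ layers, such as those of the primitive streak and node. IWP2 blocks Porcupine, the enzyme that attaches the lipid that Wnt ligands need in order to leave the cell. Cells kept in it therefore release little active Wnt, and the targets of β-catenin, the transcriptional co-activator of the pathway, are known to fall.

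Estimated reads per library were 15816711 and 16001561 in IWP2_removed, 16885451 and 17892751 in IWP2 and 10849490 and 15618539 in control. Markers of the labelled cell type were present: all 10 epiblast genes checked were at 5 CPM or more in each of the 4 compared libraries (CPM, the reads of a gene relative to all reads of its library after TMM scaling). They summed to 2777 and 2766 CPM in IWP2_removed, against 2188 and 1932 CPM in control. Much of that difference lay in Lefty1, at 1183 and 940 CPM in IWP2_removed, against 637 and 548 CPM in control. Fgf5, Sox2 and Cdh2 were lower in each letter, so the sum does not describe all 10 genes. Pou5f1, the transcription factor Oct4 that maintains pluripotency, was at 548 and 754 CPM in IWP2_removed, against 454 and 485 CPM in control (adjusted p = 1). The cells were grown on inactivated embryonic fibroblasts, and 12 fibroblast markers summed to 4267 and 3631 CPM in IWP2_removed, against 3679 and 4413 CPM in control, so these groups overlapped. Markers of trophoblast, of primitive or visceral endoderm and of blood and endothelium, 6 of each, reached at most 14.9 CPM summed in any of the 4 libraries. Since these are bulk samples, fewer cells of a type and less RNA per cell cannot be told apart anywhere in what follows. Over log CPM of the genes tested, r was 0.971 between IWP2_removed and control in letter B and 0.969 in letter C. Between both IWP2_removed libraries it was 0.971 and between both control libraries 0.968. Across letter and group it was 0.958 and 0.953.

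Of 17214 genes tested, 424 (2.46%) were at least 2-fold apart in both letters, 174 of them (1.01%) higher and 250 (1.45%) lower in IWP2_removed. These shares of all genes tested are the background for each list count below. The libraries of both groups did not overlap for 409 of the 424, whereas they did not overlap for 38.9% of all genes tested. The same values chose the 424, so this separation largely follows from the rule and is not separate support. In the fit without a letter term a single gene was called at an adjusted p below 0.05 (0.00581% of the genes tested, higher), and 0 genes were called lower. Without adjustment 606 genes were higher and 544 lower at p below 0.05, and DESeq2 called 132 higher (0.767%) and 110 lower (0.639%). With the letter as a block, 202 genes were called (1.17%), 99 higher (0.575%) and 103 lower (0.598%). All 202 had the same sign in both letters, as 66% of all genes tested did, and 167 of them were among the 424. The block favours genes alike in both letters, so the shared sign is not separate support either. The letter block was an alternative to the fit without it, so genes below are given as higher or lower with both adjusted p-values, that without the block first. Only Gm42047 is said to have risen. The plot of the per-letter ratios shows where the named genes lie among all genes tested.

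**Figure D1:**
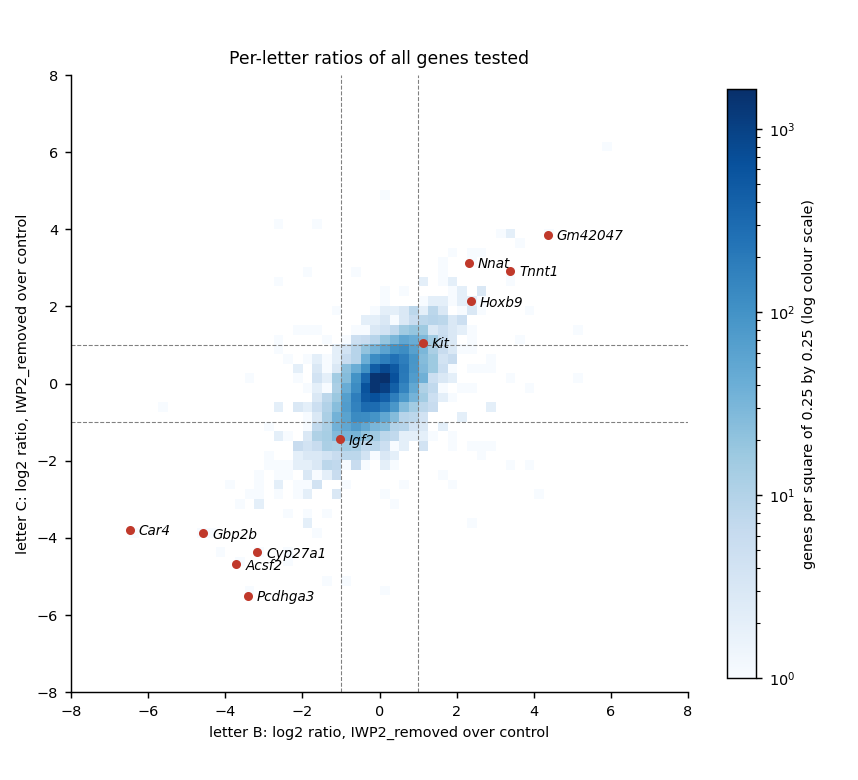
Log2 ratio of IWP2_removed over control in letter B (horizontal axis) and letter C (vertical axis) for the 17214 genes tested, counted in squares of 0.25 by 0.25 with a log colour scale. Red points are named genes and dashed lines mark 2-fold. The genes in the outer corners at upper right and lower left are those among the 174 higher and 250 lower in both letters. Of the higher genes 1, with a letter C ratio of about 9, lies beyond the axes and is not drawn.

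Gm42047, a predicted long non-coding RNA gene (chromosome 8, 121833247 to 121841178, plus strand, GRCm38), rose in IWP2_removed. It was at 768 and 667 CPM in IWP2_removed, against 37 and 45.5 CPM in control, and no library of one group came near the other group. The log2 fold change was 4.12 ± 0.24 (SE), with an adjusted p of 0.0123 without and 0.00139 with the letter block. Without control library B the adjusted p was 0.298, without control library C 0.23 and without IWP2_removed library B 0.054, each with a log2 fold change of at least 3.98. In the IWP2 libraries it was at 233 and 216 CPM, between both other groups. Levels of its transcripts are given in TPM, a level scaled to transcript length. Gm42047-202 carried most of the level in IWP2_removed, at 95.2 and 80.5 TPM, against 4.3 and 4.95 TPM in control. Gm42047-201 was at 34.2 and 18.4 TPM in IWP2_removed, against 4.32 and 3.13 TPM in control. No role of this gene is annotated in the files used.

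Among genes with a known product, Tnnt1, the slow skeletal muscle form of troponin T, had the smallest adjusted p of the higher genes with the letter block. Its level was 67.2 and 81.2 CPM in IWP2_removed, against 5.95 and 10.3 CPM in control (log2 fold change 3.18 ± 0.34 SE, adjusted p = 0.0981, with the block 0.00279). The IWP2_removed libraries stood far above both control libraries, and IWP2 was at 79.2 and 116 CPM. Of its 13 annotated transcripts the leading one, Tnnt1-206, was at 33 and 41.6 TPM in IWP2_removed, against 3.32 and 4.31 TPM in control. Tnnt1-207 was at 25.7 and 31.5 TPM in IWP2_removed, against 0.68 and 0 TPM in control. It was the sole member of 20 tested troponin and contractile genes that was 2-fold apart in both letters. Nnat, the imprinted and paternally expressed gene for the membrane proteolipid neuronatin, was at 158 and 128 CPM in IWP2_removed, against 31.3 and 14.2 CPM in control (adjusted p = 0.242, with the block 0.00721), and at 461 and 216 CPM in IWP2. Kit, the receptor tyrosine kinase for stem cell factor, was at 55.1 and 55 CPM in IWP2_removed, against 25.2 and 26.1 CPM in control, a smaller difference with little spread (log2 fold change 1.10 ± 0.19 SE, adjusted p = 0.229, with the block 0.031). Its transcripts did not differ evenly. Coding Kit-201 was at 4.97 and 2.97 TPM in IWP2_removed, against 2.67 and 2.32 TPM in control, under 2-fold in both letters. Coding Kit-204 was at 1.8 and 2.36 TPM, against 0.87 and 0.651 TPM. Kit-202, which retains an intron, was at 6.43 and 6.49 TPM, against 1.19 and 1.91 TPM. In the list of 26 tested receptor tyrosine kinases and their ligands, Kit was the one gene higher in both letters.

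Another 5 genes higher in both letters have unlike products. Col4a6, a chain of the type IV collagen of basement membranes, was at 14.5 and 12.2 CPM in IWP2_removed, against 2.01 and 1.85 CPM in control (adjusted p = 0.154, with the block 0.0146). Sost, which encodes the secreted Wnt antagonist sclerostin and was not in the list of antagonists, was at 40.3 and 14.2 CPM in IWP2_removed, against 6.31 and 0.829 CPM in control (adjusted p = 0.621, with the block 0.0146). Its libraries spread widely within each group. Slfn9, of the Schlafen family, was at 40.3 and 33.6 CPM in IWP2_removed, against 6.77 and 2.55 CPM in control (adjusted p = 0.27, with the block 0.0129). Palmd, the gene of palmdelphin, was at 34.1 and 20.1 CPM in IWP2_removed, against 5.58 and 4.27 CPM in control (adjusted p = 0.154, with the block 0.00721). Pdzk1, a PDZ-domain scaffold of membrane transporters, was at 17.3 and 32.8 CPM in IWP2_removed, against 3.11 and 8.54 CPM in control (adjusted p = 0.418, with the block 0.0207). Both of these lie in a stretch of chromosome 3 that was higher as a whole and is described further on.

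Chrna4, Ntng2, Dnajc6 and Nhlh2 were also higher in both letters and are known from neurons, but they were not a list of their own, and Ntng2 and Dnajc6 were not called with the block. Chrna4, a subunit of the nicotinic acetylcholine receptor, was at 61.3 and 74.6 CPM in IWP2_removed, against 9.42 and 18.6 CPM in control (adjusted p = 0.254, with the block 0.00983). Ntng2, a netrin-related membrane protein of axons, was at 32.2 and 70.8 CPM in IWP2_removed, against 8.87 and 11.7 CPM in control (adjusted p = 0.536, with the block 0.054). Dnajc6, the clathrin-uncoating cofactor auxilin, was at 16 and 10.5 CPM in IWP2_removed, against 2.93 and 2.55 CPM in control (adjusted p = 0.536, with the block 0.0959). Nhlh2, a helix-loop-helix factor of developing neurons that lies in the same chromosome 3 stretch, was at 8.69 and 15.9 CPM in IWP2_removed, against 2.29 and 4.02 CPM in control (adjusted p = 0.32, with the block 0.0349). Of the 13 listed neuron genes, Dcx and Tubb3 were higher in both letters, beside 1.01% of all genes tested. Dcx, which binds microtubules in migrating neurons, was at 55.5 and 42.2 CPM in IWP2_removed, against 12.9 and 14 CPM in control (adjusted p = 0.27, with the block 0.0338). Tubb3, neuronal β-tubulin, was at 42.7 and 120.5 CPM in IWP2_removed, against 15.9 and 59.3 CPM in control. Its groups overlapped, with letter C the higher one in each. Stmn2, another neuron marker, went the other way without overlap, by less than 2-fold. It was at 76.2 and 96.6 CPM in IWP2_removed, against 107 and 120.4 CPM in control. The 4 neuron markers checked summed to 131.5 and 235.2 CPM in IWP2_removed, 317.8 and 392.7 CPM in IWP2 and 130.3 and 190.6 CPM in control, so the IWP2_removed and control sums overlapped. The part of neuronal cells in these values was not tested.

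**Figure D2:**
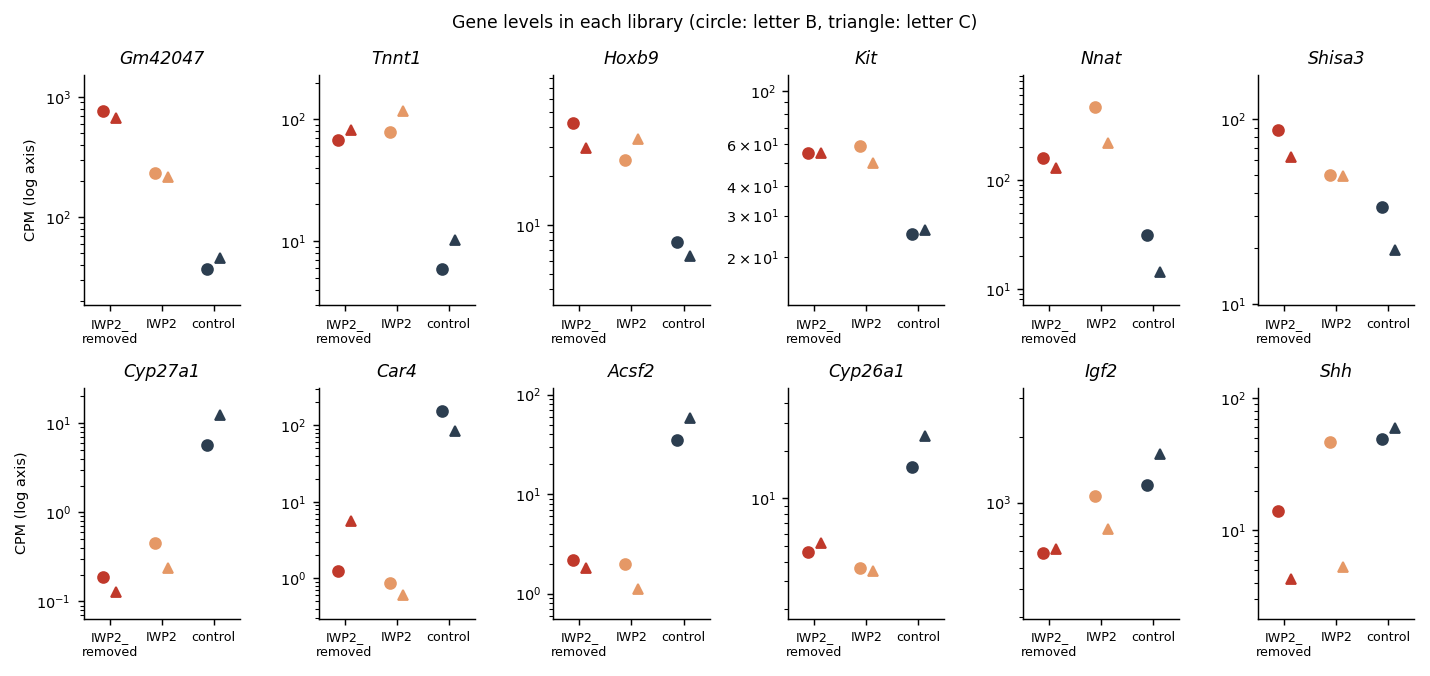
CPM on a log axis in each library for 12 genes, with circles for letter B and triangles for letter C, in the order IWP2_removed, IWP2 and control. In the upper row each gene is higher in both IWP2_removed libraries than in both control libraries, and in the lower row each gene is lower. Axes differ between panels.

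Among the genes lower in both letters, 5 enzymes are given first, an order that is not a tested theme. Cyp27a1, the sterol 27-hydroxylase of bile acid synthesis, was at 0.186 and 0.129 CPM in IWP2_removed, against 5.67 and 12.5 CPM in control (log2 fold change -5.78 ± 0.70 SE, adjusted p = 0.13, with the block 0.0157). Its coding transcript Cyp27a1-201 was at 0.074 and 0.024 TPM in IWP2_removed, against 2.21 and 3.45 TPM in control. Cyp27a1 was the sole gene of 24 tested in sterol and bile acid metabolism to be 2-fold apart in both letters. Acsf2, an acyl-CoA synthetase of mitochondria, was at 2.17 and 1.8 CPM in IWP2_removed, against 34.6 and 58.4 CPM in control (log2 fold change -4.54 ± 0.43 SE, adjusted p = 0.0981, with the block 0.00721). Car4, a carbonic anhydrase on the outer face of the cell membrane, was at 1.24 and 5.66 CPM in IWP2_removed, against 154 and 84.5 CPM in control (adjusted p = 0.143, with the block 0.0186). Its transcript Car4-201 was at 0.703 and 2.25 TPM, against 95.8 and 48.2 TPM. Low levels of these 3 genes were also measured in IWP2, at 0.456 and 0.237 CPM for Cyp27a1, 1.99 and 1.13 CPM for Acsf2 and 0.854 and 0.593 CPM for Car4. Cyp2b23, a cytochrome P450, was at 2.17 and 0.386 CPM in IWP2_removed, against 46.2 and 16.5 CPM in control (adjusted p = 0.235, with the block 0.00721). Gpx7, a glutathione peroxidase of the endoplasmic reticulum, was at 6.64 and 2.38 CPM in IWP2_removed, against 24.2 and 21.5 CPM in control (adjusted p = 0.32, with the block 0.0281).

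Further genes lower in both letters have unlike products. Enpp2, the secreted enzyme autotaxin that makes lysophosphatidic acid, was at 6.52 and 6.24 CPM in IWP2_removed, against 24.2 and 34 CPM in control (adjusted p = 0.154, with the block 0.0237). Cp, the copper-carrying ferroxidase ceruloplasmin, was at 6.95 and 8.56 CPM in IWP2_removed, against 27.5 and 52.2 CPM in control (adjusted p = 0.171, with the block 0.0122). Lgi3, a secreted leucine-rich protein, was at 2.11 and 2.64 CPM in IWP2_removed, against 9.7 and 11.4 CPM in control (adjusted p = 0.229, with the block 0.0279). Susd5, named for its Sushi domain, was at 0.621 and 2.25 CPM in IWP2_removed, against 8.51 and 12.7 CPM in control (adjusted p = 0.32, with the block 0.0466). Pomc, the precursor of adrenocorticotropin and other peptide hormones, was at 0.124 and 0.772 CPM in IWP2_removed, against 2.93 and 30.4 CPM in control, with far more in control library C than in control library B (adjusted p = 0.523, with the block 0.178). Gbp2b and Gbp2, interferon-induced guanylate-binding proteins, lie beside each other on chromosome 3 in a stretch that was lower as a whole. Gbp2b had 2 reads over both IWP2_removed libraries and 263 over both control libraries, which is 0.639% of the control level (95% exact interval 0.077% to 2.33%, covering counting error only). Gbp2 was at 5.03 and 3.28 CPM in IWP2_removed, against 19.7 and 15.6 CPM in control (adjusted p = 0.534, with the block 0.0707). Xlr3b, an imprinted gene of the X-linked lymphocyte-regulated family, was at 0.621 and 0.901 CPM in IWP2_removed, against 14.3 and 11.8 CPM in control (adjusted p = 0.0981, with the block 0.00721). The non-coding AA465934 was at 2.42 and 2.77 CPM in IWP2_removed, against 24.4 and 19.8 CPM in control (adjusted p = 0.0981, with the block 0.00721).

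Retrotransposed or near-identical gene copies need separate mention, because estimated counts of such genes depend on how reads were shared between copies. Of 756 pseudogenes tested, 41 (5.42%) were 2-fold apart in both letters, 15 higher and 26 lower, beside 324 of 14730 protein-coding genes (2.2%). The pseudogene Rpl15-ps3 was at 197 and 279 CPM in IWP2_removed, against 1.55 and 0 CPM in control. For the pseudogene Gm4322 the levels were 27.9 and 32.4 CPM in IWP2_removed and 22.6 and 51.2 CPM in IWP2, while both control libraries had no read. Rpl34, a protein of the large ribosomal subunit, was at 148 and 212 CPM in IWP2_removed, against 14.6 and 13.7 CPM in control (adjusted p = 0.115, with the block 0.00721). Ftl1, the ferritin light chain, was at 1045 and 806 CPM in IWP2_removed, against 299 and 177 CPM in control (adjusted p = 0.212, with the block 0.016). Both have near-identical copies elsewhere in the genome, so their values are uncertain, and Rpl34 also lies in the higher stretch of chromosome 3. Rpl15-ps3 and Gm4322 were singled out after their values were seen.

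Hox genes, which encode the homeodomain factors that give cells their position along the body axis, are described by cluster. None of the 656 distinct members tested of the 39 gene lists and an added Hedgehog list was called without the block. At unadjusted p below 0.05 there were 87 (13.3% of the members, beside 6.68% of all genes tested), and DESeq2 called 31 (4.73%, beside 1.41%). The block called 9 higher and 16 lower (3.81% together, beside 1.17%). The lists were chosen with earlier results of these data known, so nothing is read from these shares. Of 32 Hox genes tested, 5 were at least 2-fold higher and 1 lower in both letters, beside 1.01% and 1.45% of all genes tested. Their median log2 fold change was 0.29, beside 0.005 over all genes tested. The sign of that median turned without control library C (-0.22 at the lowest) and without IWP2_removed library B.

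Hoxb9 led the posterior end of the Hoxb cluster (chromosome 11). It was at 42.3 and 29.8 CPM in IWP2_removed, against 7.78 and 6.38 CPM in control, with 25.1 and 33.7 CPM in IWP2 (log2 fold change 2.35 ± 0.29 SE, adjusted p = 0.135, with the block 0.016). Its transcript Hoxb9-202 was at 11.9 and 7.2 TPM in IWP2_removed, against 1.83 and 1.53 TPM in control. Hoxb13, the most posterior gene of the cluster, was at 88 and 86.6 CPM in IWP2_removed, against 34.3 and 30.4 CPM in control (adjusted p = 0.35, with the block 0.0506). Hoxb8 had a low level, at 5.15 and 4.25 CPM in IWP2_removed, against 2.29 and 1.08 CPM in control (adjusted p = 0.671, with the block 0.115). None of Hoxb1 to Hoxb7 was 2-fold apart in both letters: of these 7 genes, 3 had both ratios above 0 and 2 had both below 0. In the Hoxa cluster (chromosome 6) all 4 genes from Hoxa2 to Hoxa5 had both ratios above 0 and did not overlap between groups, as 38.9% of all genes tested did not. They summed to 78.5 and 103.9 CPM in IWP2_removed, 81.6 and 126.4 CPM in IWP2 and 38.1 and 28.2 CPM in control. Hoxa2 was at 23.3 and 37.1 CPM in IWP2_removed, against 8.87 and 8.03 CPM in control (adjusted p = 0.391, with the block 0.0534). For Hoxa5 the levels were 22 and 26.3 CPM in IWP2_removed, against 11.6 and 6.31 CPM in control (adjusted p = 0.39, with the block 0.0958). Hoxa7 went the other way, with 2.42 and 1.09 CPM in IWP2_removed, against 6.22 and 3.51 CPM in control (adjusted p = 0.693, with the block 0.118), and none of the 5 genes from Hoxa7 to Hoxa13 had both ratios above 0. The whole Hoxa cluster lies in a stretch of chromosome 6 whose median was higher in IWP2_removed and where 88.8% of the genes at 5 CPM or more had both ratios above 0. Values above 0 there are shared with neighbouring genes, and Hoxa7 was lower in spite of it. Hoxc and Hoxd genes had no member 2-fold apart in both letters, and none of their 12 genes separated the groups.

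The clustered protocadherins (chromosome 18) are cell-surface cadherins encoded by variable exons that cells choose singly, so that sister cells can differ in the members they use. Of 50 tested, 1 was at least 2-fold higher and 8 lower in both letters, beside 1.01% higher and 1.45% lower of all genes tested. Pcdhga3 was at 2.05 and 0.45 CPM in IWP2_removed, against 26.6 and 42.5 CPM in control (adjusted p = 0.229, with the block 0.0256). Pcdhga10 was at 3.17 and 1.03 CPM in IWP2_removed, against 18.8 and 32.8 CPM in control (adjusted p = 0.27, with the block 0.0394). Pcdhgb5, the one higher gene, was at 36 and 33.9 CPM in IWP2_removed, against 8.96 and 6.63 CPM in control (adjusted p = 0.35, with the block 0.0406). Pcdhgb5 was at 6.83 and 2.14 CPM in IWP2, on the side of control, while Pcdhga3 and Pcdhga10 were at 1.54 and 0.415 CPM and at 1.99 and 0.653 CPM there, on the side of IWP2_removed. In the α cluster, Pcdha2 was at 0.124 and 0.129 CPM in IWP2_removed, against 2.65 and 5.87 CPM in control (adjusted p = 0.229, with the block 0.0276). Pcdha8 was at 0.372 and 0.708 CPM in IWP2_removed, against 4.48 and 6.57 CPM in control (adjusted p = 0.229, with the block 0.0321). None of the 20 genes of the β cluster was 2-fold apart in both letters, although 12 had both ratios below 0 and 2 had both above 0. Pcdhgc3, the most abundant member, was at 242 and 147 CPM in IWP2_removed, against 262 and 253 CPM in control (adjusted p = 1, with the block 0.524). The γ genes and the α genes share constant exons within their cluster, so reads could be split between members and single-gene values are uncertain. The sum over the 21 γ genes was 458.4 and 346.3 CPM in IWP2_removed, against 452.5 and 450.3 CPM in control, with 458.3 and 271.1 CPM in IWP2, so the members that differed did so within sums that overlapped.

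**Figure D3:**
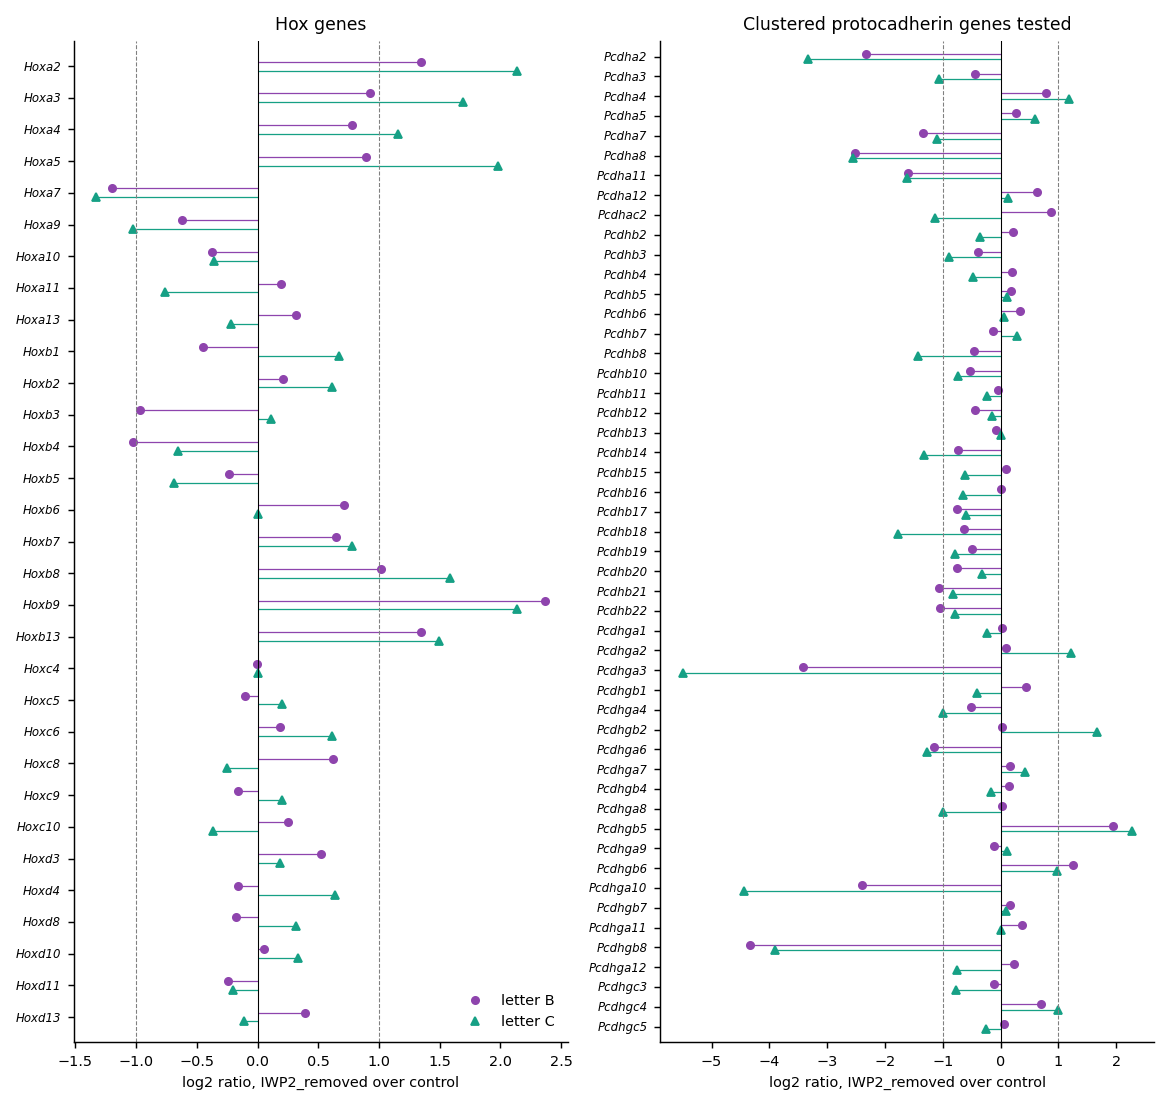
Log2 ratio of IWP2_removed over control for Hox genes (left) and each clustered protocadherin gene tested (right), with circles for letter B and triangles for letter C. Dashed lines mark 2-fold. Hoxa2 to Hoxa5 and Hoxb8 to Hoxb13 lie right of 0 in both letters, and Pcdhga3, Pcdhga10 and Pcdhgb8 have the lowest ratios among the protocadherins.

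Among the lists of embryonic cell types, genes of the node and axial mesendoderm, the midline tissue that secretes Hedgehog and BMP antagonists, had the largest share of lower members. Of 14 tested, 6 were at least 2-fold lower in both letters and 0 higher, beside 1.45% lower and 1.01% higher of all genes tested. Their median log2 fold change was -1.21 (-0.94 in letter B and -1.16 in letter C), beside 0.005 over all genes tested. The definitive endoderm list had a median of -0.98, with 1 of 13 tested members lower in both letters. Lists were chosen with earlier results known, so nothing is read from this ranking. The node median stayed between -1.38 and -0.79 in the 18 alternatives run, but no single member of the node list was called with the block. Shh, the Hedgehog ligand of node and notochord, was at 14.1 and 4.31 CPM in IWP2_removed, 46.5 and 5.28 CPM in IWP2 and 49.1 and 59.8 CPM in control (adjusted p = 0.671, with the block 0.106). Foxa1, a forkhead factor of endoderm and midline, was at 8.38 and 4.7 CPM in IWP2_removed, against 18.3 and 19.3 CPM in control (adjusted p = 0.876, with the block 0.236). Foxj1, the master regulator of motile cilia, was at 8.88 and 7.78 CPM in IWP2_removed, against 18.8 and 21.1 CPM in control (adjusted p = 0.395, with the block 0.0763). Noto, a homeobox gene of the node, was at 0.807 and 0.643 CPM in IWP2_removed, against 4.3 and 1.85 CPM in control (adjusted p = 0.765, with the block 0.186). Foxa2, the forkhead factor that marks the whole axial line, was at 27.1 and 17.8 CPM in IWP2_removed, against 54.2 and 46.8 CPM in control, with log2 ratios of -0.99 in letter B, just short of 2-fold, and -1.37 in letter C (adjusted p = 0.862, with the block 0.183).

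The BMP antagonists of the node, Chrd and Nog, stood among the lower genes. Chrd was at 17.5 and 14 CPM in IWP2_removed, against 39.7 and 34.8 CPM in control (adjusted p = 0.78, with the block 0.189). Nog was at 2.3 and 3.02 CPM in IWP2_removed, against 10.2 and 8.23 CPM in control (adjusted p = 0.489, with the block 0.125). With the ligand gene Bmp5, at 4.16 and 4.44 CPM in IWP2_removed, against 14.5 and 19.13 CPM in control (adjusted p = 0.39, with the block 0.0876), they were the 3 lower genes in both letters among 19 BMP genes tested, and 0 were higher. Genes of the Hedgehog pathway were gathered after the level of Shh had been seen, so their direction is not separate support. Of 15 tested, Shh, Ptch1 and Hhip were lower in both letters and 0 higher, with a median log2 fold change of -0.13. To set beside the BMP and Hedgehog lists, 1.45% of all genes tested were lower and 1.01% higher. Ptch1, the Hedgehog receptor and itself a target of the pathway, was at 171 and 98.6 CPM in IWP2_removed, 503 and 74.5 CPM in IWP2 and 432 and 434 CPM in control (adjusted p = 0.816, with the block 0.185). Hhip, a membrane protein that binds Hedgehog and is likewise a target, was at 6.33 and 6.11 CPM in IWP2_removed, against 16.8 and 23.1 CPM in control and was the one gene of the list called with the block (adjusted p = 0.232, with the block 0.0401). Gli1, the transcription factor that reports pathway activity, was at 35.4 and 12.5 CPM in IWP2_removed, against 54.2 and 52.8 CPM in control (adjusted p = 0.915, with the block 0.156). Within IWP2, Shh, Ptch1 and Gli1 differed by letter, with library B near or above the control levels and library C below both control libraries.

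Retinoic acid is made from retinol by dehydrogenases and destroyed by CYP26 enzymes, and it patterns the trunk of the embryo. Of 15 genes tested, 3 were at least 2-fold lower in both letters and 0 higher. Over all genes tested these shares were 1.45% and 1.01%. Cyp26a1, the enzyme that degrades retinoic acid and a target of it, was at 4.59 and 5.21 CPM in IWP2_removed, against 15.7 and 24.9 CPM in control (log2 fold change -2.05 ± 0.34 SE, adjusted p = 0.229, with the block 0.0276), with 3.65 and 3.5 CPM in IWP2. Rdh10, which makes retinaldehyde, was at 18.9 and 9.33 CPM in IWP2_removed, against 40.4 and 21.1 CPM in control (adjusted p = 0.798, with the block 0.0394), and its groups did not overlap. Aldh1a1, which oxidises retinaldehyde to retinoic acid, was at 0.993 and 0.45 CPM in IWP2_removed, against 4.21 and 5.29 CPM in control (adjusted p = 0.27, with the block 0.0515). Crabp1, a binding protein of retinoic acid in the cytoplasm, was at 189 and 671 CPM in IWP2_removed, against 119.7 and 129.6 CPM in control and higher in both IWP2_removed libraries, with most of the difference in letter C (adjusted p = 0.748, with the block 0.175). The list as a whole had no common direction, with a median log2 fold change of 0.11 that turned below 0 in 4 of 18 alternatives.

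Promoters are shown for a retinoid, a metabolic and a muscle gene described above, to set the measured levels beside the sequence in front of each gene. Each runs from 250 bases before to 50 bases after the RefSeq start on GRCm38.p6, 5′ to 3′ on the strand of the gene, and capitals mark a motif match. Cyp26a1 lies at chr19:37697558-37697857 on the plus strand, Acsf2 at chr11:94601737-94602036 on the minus strand and Tnnt1 at chr7:4515926-4516225 on the minus strand.
Cyp26a1: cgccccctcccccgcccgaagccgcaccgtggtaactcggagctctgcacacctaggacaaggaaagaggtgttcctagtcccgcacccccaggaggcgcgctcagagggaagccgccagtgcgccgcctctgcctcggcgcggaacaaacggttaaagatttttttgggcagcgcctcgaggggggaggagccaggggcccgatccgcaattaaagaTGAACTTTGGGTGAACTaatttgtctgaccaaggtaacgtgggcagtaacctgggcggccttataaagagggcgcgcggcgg
Acsf2: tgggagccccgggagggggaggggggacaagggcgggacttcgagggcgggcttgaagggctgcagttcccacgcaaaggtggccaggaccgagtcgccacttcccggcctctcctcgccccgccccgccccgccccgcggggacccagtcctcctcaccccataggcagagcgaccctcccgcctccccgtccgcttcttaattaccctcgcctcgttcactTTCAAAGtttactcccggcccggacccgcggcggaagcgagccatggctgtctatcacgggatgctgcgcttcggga
Tnnt1: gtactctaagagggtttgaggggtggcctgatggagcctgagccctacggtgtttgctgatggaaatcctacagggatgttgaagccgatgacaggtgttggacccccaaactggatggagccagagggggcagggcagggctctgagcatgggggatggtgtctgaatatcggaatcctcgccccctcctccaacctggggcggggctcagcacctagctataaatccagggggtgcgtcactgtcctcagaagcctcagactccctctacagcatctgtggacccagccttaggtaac
The capitals in Cyp26a1 are the retinoic acid response element of direct repeats 5 bases apart, searched as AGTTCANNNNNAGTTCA on both strands and found on the opposite strand from base 219 of the printed run. It occurs in 8 of 32851 promoters of this length (0.0244%). The capitals in Acsf2, from base 224, are the TCF/LEF spelling CTTTGAA read on the opposite strand, which occurs in 5.14% of promoters, and the spelling CTTTGAT, which overlaps it in its first 6 letters, in 3.73%. The GLI spelling TGGGTGGTC occurs in 0.253% of promoters. Tnnt1 held none of these letters. Of 34 genes named by the size of their ratios or always, 27 matched the promoter table, and 2 of the 27, Acsf2 and Dkk1, held CTTTGAA, while 0 held CTTTGAT, the retinoic acid element or the GLI spelling. A match is a description of the letters only.

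Imprinted genes are expressed from one parental allele. Among 35 tested, 1 was higher and 4 lower in both letters, with a median log2 fold change of -0.30. Over all genes tested 1.01% were higher, 1.45% were lower and the median was 0.005. Igf2, the paternally expressed growth factor, was at 589 and 614 CPM in IWP2_removed, against 1201 and 1674 CPM in control (log2 fold change -1.26 ± 0.29 SE, adjusted p = 0.333, with the block 0.0682), with 1074 and 757 CPM in IWP2. Both leading Igf2 transcripts were lower: Igf2-201 was at 76.9 and 72.8 TPM in IWP2_removed, against 188 and 202 TPM in control, and Igf2-208 at 65.1 and 82.3 TPM, against 138 and 171 TPM. H19, the maternally expressed non-coding RNA that shares an imprinting control region with Igf2, was lower as well, at 998 and 1355 CPM in IWP2_removed, against 2242 and 3171 CPM in control (adjusted p = 0.523, with the block 0.157). Peg10, a retrotransposon-derived and paternally expressed gene, was at 201 and 66.8 CPM in IWP2_removed, against 411 and 199 CPM in control, where the letters differed more than the groups and the groups overlapped (adjusted p = 1, with the block 0.227). Ddc, aromatic amino acid decarboxylase, was at 6.64 and 5.4 CPM in IWP2_removed, against 17.5 and 13.1 CPM in control (adjusted p = 0.661, with the block 0.119). Nnat, described above, was the higher member. None of 9 tested genes of the DNA methylation enzymes was 2-fold apart in both letters, beside 2.46% of all genes tested.

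Wnt pathway genes bear on the history of the line. None of 22 tested target and feedback genes of β-catenin was 2-fold apart in both letters, beside 2.46% of all genes tested. Their median log2 fold change was -0.06, beside 0.005 over all genes. Axin2, a negative-feedback target of the pathway, was at 40.4 and 31.4 CPM in IWP2_removed, against 39.5 and 35.8 CPM in control (adjusted p = 1, with the block 0.904), with 35.7 and 22.7 CPM in IWP2. Its log2 fold change was -0.07 ± 0.27 (SE), a sign that turned in 3 of 18 alternatives. Lef1, the nuclear partner of β-catenin and a target, was at 14.9 and 14.3 CPM in IWP2_removed, against 9.79 and 10.0 CPM in control (adjusted p = 0.866, with the block 0.344) and lies in the higher stretch of chromosome 3. T, the primitive streak gene Brachyury, was at 55.5 and 30.9 CPM in IWP2_removed, against 106 and 54.6 CPM in control (adjusted p = 1, with the block 0.286), with overlapping groups. Ccnd1, the cyclin that drives entry into S phase, was at 438 and 220.0 CPM in IWP2_removed, against 446 and 236 CPM in control (adjusted p = 1, with the block 0.929), with letter B the higher one in each group. A p that misses the threshold does not show that these levels were the same.

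Among 17 secreted Wnt antagonists, 1 was higher and 1 lower in both letters, beside 1.01% and 1.45% of all genes tested. Shisa3, of a family that holds Frizzled and FGF receptors in the endoplasmic reticulum, as first shown in Xenopus, was at 87.2 and 62.7 CPM in IWP2_removed, against 33.6 and 19.6 CPM in control (adjusted p = 0.277, with the block 0.0276). Wif1, which binds Wnt ligands outside the cell, was at 8.44 and 10.7 CPM in IWP2_removed, against 23.1 and 48.7 CPM in control (adjusted p = 0.28, with the block 0.0479). Dkk1, the antagonist that binds the co-receptor LRP6, was at 3.54 and 5.98 CPM in IWP2_removed, 2.96 and 0.356 CPM in IWP2 and 6.95 and 9.18 CPM in control (adjusted p = 1, with the block 0.73). The Dkk1 levels of IWP2_removed did not overlap those of control, but the difference was under 2-fold in both letters. In the machinery that sends and receives the signal, Wls, the carrier that brings Wnt ligands to the cell surface, was at 169 and 104 CPM in IWP2_removed, against 285 and 239.5 CPM in control (adjusted p = 0.536, with the block 0.0479). It lies in the lower stretch of chromosome 3. Fzd6, a Frizzled receptor, was at 21 and 13.6 CPM in IWP2_removed, against 42.1 and 37.2 CPM in control (adjusted p = 0.475, with the block 0.0436).

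In the other signalling lists single genes differed. Lefty1, the Nodal antagonist, was at 1183 and 940.1 CPM in IWP2_removed, against 637 and 548 CPM in control (adjusted p = 0.747, with the block 0.277) and lies in the higher stretch of chromosome 1. Fgfr3, an FGF receptor, was at 0.683 and 0.901 CPM in IWP2_removed, against 4.57 and 5.67 CPM in control (adjusted p = 0.23, with the block 0.0402), the one gene lower in both letters of 22 FGF genes tested. No gene of 17 in the Notch list was 2-fold apart in both letters, beside 2.46% of all genes tested. Cdh1, the epithelial cadherin, was at 7.33 and 7.59 CPM in IWP2_removed, against 35.9 and 25.2 CPM in control (adjusted p = 0.549, with the block 0.118). In the mesoderm list of 21 tested genes, 1 was higher and 3 lower in both letters, with a median log2 fold change of -0.31. Six2, a homeobox gene of mesoderm, was at 11.2 and 20.8 CPM in IWP2_removed, against 3.2 and 2.17 CPM in control (adjusted p = 0.284, with the block 0.0406). Kdr, the VEGF receptor of endothelial precursors, was at 2.11 and 0.515 CPM in IWP2_removed, against 6.04 and 1.98 CPM in control (adjusted p = 0.875, with the block 0.194), with overlapping groups. In the neural list of 31 genes, 3 were higher and 2 lower in both letters, beside 1.01% and 1.45% of all genes tested. Pax2, of midbrain and kidney primordia, was at 7.39 and 5.85 CPM in IWP2_removed, against 2.1 and 2.23 CPM in control (adjusted p = 0.41, with the block 0.0842), whereas the ventral neural tube genes Olig2 and Nkx6-2 were lower. Olig2 was at 0.372 and 0.965 CPM in IWP2_removed, against 4.94 and 3.51 CPM in control (adjusted p = 0.32, with the block 0.0682). Nkx6-2 was at 1.93 and 2.06 CPM in IWP2_removed, against 6.59 and 15.5 CPM in control (adjusted p = 0.284, with the block 0.0606).

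In the core pluripotency list, 0 of 13 members tested were 2-fold apart in both letters, beside 2.46% of all genes tested. No member was 2-fold apart in both letters either in the cell cycle list (26 tested) or the integrated stress response and amino acid list (20). The same held for the p53 response (19), glycolysis and hypoxia (23) and feeder fibroblasts (31). Lists this short can hold none at that share, so nothing is read from these counts. With the block 1 member was called lower in each of the glycolysis and feeder lists. Of the 75 genes with the highest mean level in their lists, 8 were 2-fold apart in both letters, namely Hoxb9, Hoxb13, Shisa3 and Tubb3, all higher, and Igf2, H19, Peg10 and Ptch1, all lower. Of all genes tested 2.46% were 2-fold apart. With the letter block 3 of the 75 were called, Hoxb9, Shisa3 and Wls, beside 1.17% of all genes tested. The bar plot of all lists gives the shares.

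**Figure D4:**
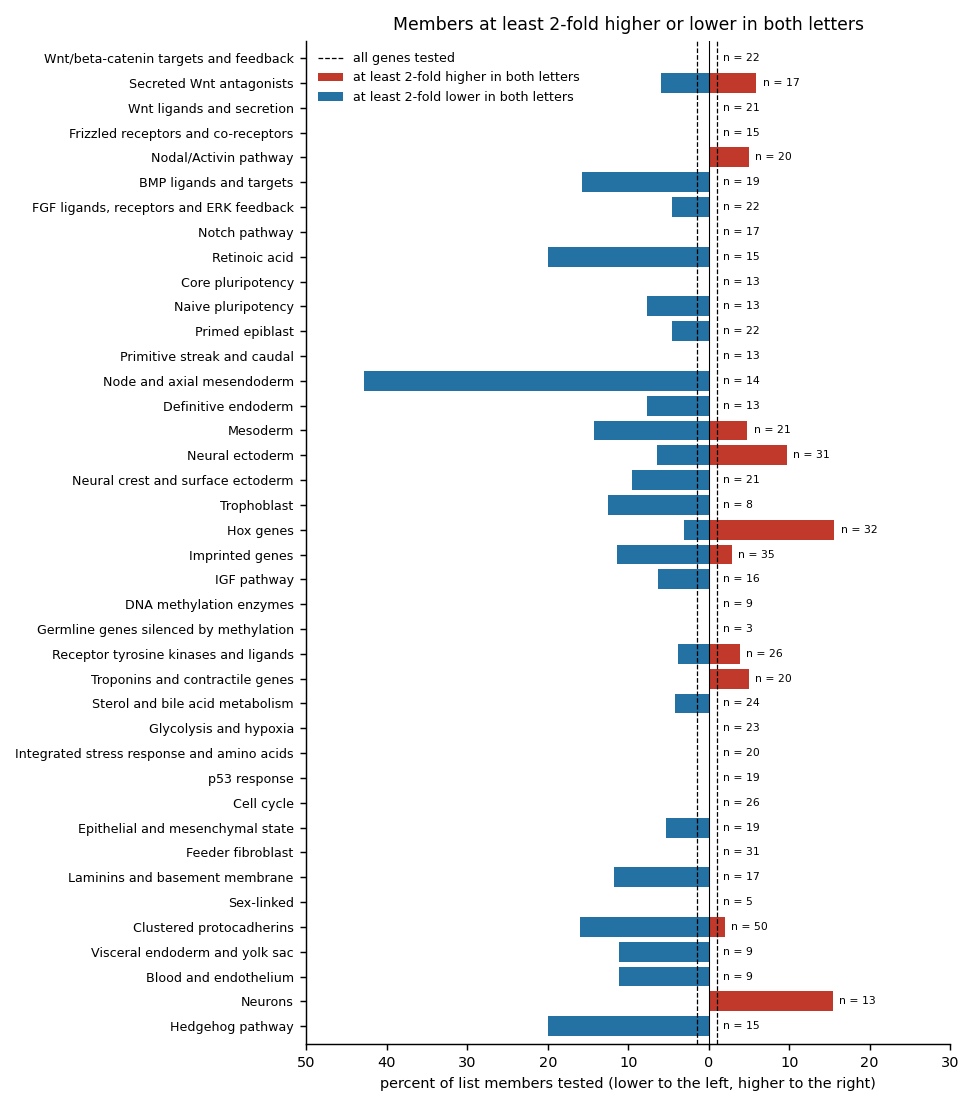
Percent of the tested members of each gene list that were at least 2-fold higher (right) or lower (left) in both letters, with the number tested beside each bar. Dashed lines mark the shares of all genes tested, 1.01% and 1.45%. The node list has 6 of 14 members lower, and the Hox list 5 of 32 higher.

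Against the IWP2 libraries, 1 gene of 17214 was called in IWP2_removed (0.00581%), with 873 at unadjusted p below 0.05. None of the 424 genes above was called. The one called gene was Gdf3, a ligand of the TGF-β family that acts with Nodal. It was at 45.3 and 33.2 CPM in IWP2_removed, 1.77 and 1.6 CPM in IWP2 and 45.2 and 33 CPM in control, with a log2 fold change of 4.54 and an adjusted p of 0.04 against IWP2. Without any 1 of the 6 libraries it was no longer called, with adjusted p-values of 0.0616 to 0.257. It was not called with limma on log2(TPM + 1) (adjusted p = 0.232) or on log2(TPM + 0.1) (adjusted p = 0.0698) either. With the letter block the adjusted p was 0.000926. DESeq2 called 36 genes higher and 40 lower in this contrast. The ratio to control was 0.00 in letter B and 0.01 in letter C on the log2 scale, and the CPM ratios were 100.2% and 100.7% of control.

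Differences also ran along chromosomes. Of 241 windows of 10 Mb with at least 15 genes at 5 CPM or more, 18 had a median per-letter log2 ratio of at least 0.25 in size with the same sign in both letters, 13 higher and 5 lower. They formed 6 stretches (GRCm38). On chromosome 3, from 90 to 140 Mb, the median over 263 genes was, as a log2 fold change, 0.55 (0.49 in letter B and 0.56 in letter C). From 140 to 160 Mb of the same chromosome, 54 genes had a median of -0.74 (-0.75 and -0.81). On chromosome 13, from 100 to 120 Mb, the median over 67 genes was -0.69 (-0.67 and -0.64). These 3 stretches were also apart between IWP2_removed and IWP2, with medians of 0.58, -0.75 and -0.57. The last value was not particular to its stretch. On chromosome 13 the windows from 0 to 100 Mb had medians of -0.407 to -0.605 between IWP2_removed and IWP2. Those windows were not shifted against control.

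The other 3 stretches had medians near 0 between IWP2_removed and IWP2. On chromosome 1, from 130 to 200 Mb, the window from 140 to 150 Mb had too few genes to be measured. In the other 6 windows the median over 312 genes was 0.43 against control (0.37 in letter B and 0.46 in letter C) and -0.06 against IWP2. On chromosome 6, from 40 to 60 Mb, the values over 80 genes were 0.65 against control (0.53 and 0.70) and -0.02 against IWP2. On chromosome 15, from 0 to 10 Mb, 23 genes had -0.30 against control (-0.28 and -0.30) and 0.02 against IWP2. Windows were picked by these same ratios, so a majority of genes on the same side in each letter follows from the rule. The shares below are therefore a description only. From 90 to 140 Mb of chromosome 3, 79.8% of the genes had both ratios above 0. From 140 to 160 Mb, 90.7% had both below 0. Over all genes of that level the shares were 34.7% above and 33.5% below. The 18 windows held 1206 of the genes tested and 67 of the 424 genes apart in both letters, of which 44 were higher genes in higher windows and 15 lower genes in lower windows. Without the genes of these windows, 129 genes were higher and 228 lower in both letters, and 58 were called higher and 86 lower with the letter block. DNA was not measured in these libraries, and what underlies the stretches was not tested.

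**Figure D5:**
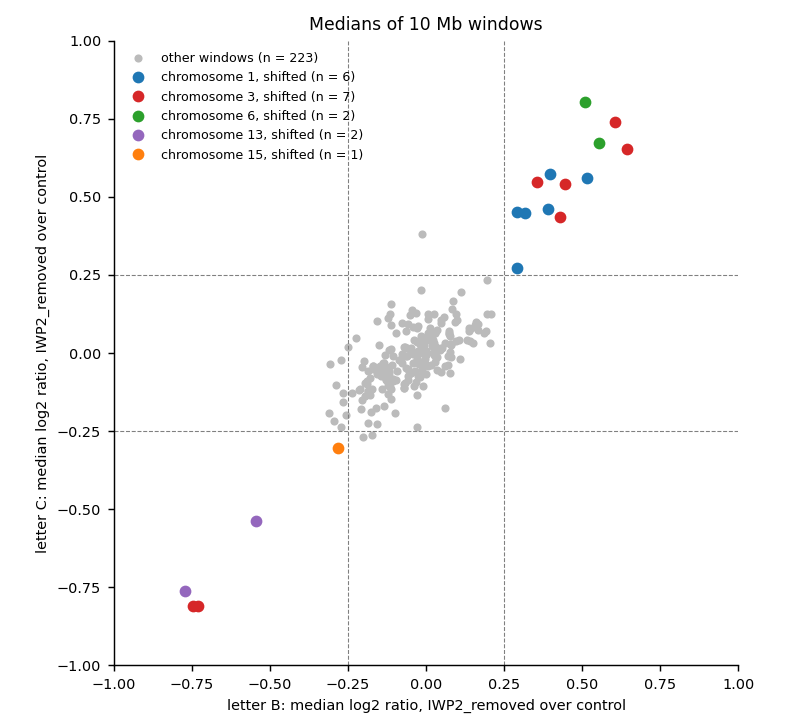
Median log2 ratio of IWP2_removed over control in letter B (horizontal axis) and letter C (vertical axis) for 241 windows of 10 Mb. Coloured points are the 18 windows past 0.25 in size in both letters, by chromosome, and grey points the other windows. Chromosome 3 has 5 windows at upper right and 2 at lower left.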

How the data were processed

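RNA was sequenced after TruSeq stranded mRNA preparation, per the labels' protocols. Each deposited table holds 1 library, with an estimated count for every transcript (not whole where reads fit several) and its TPM, a level per transcript length, both as the authors made them. Salmon, DESeq2 and edgeR are the tools in the submitters' processing notes, which state no version. The transcriptome build is not given in sources used here. The treatment protocol also names SB431542, which no label ties to a library used here.

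Transcripts were matched by Ensembl identifier to GENCODE vM21 (GRCm38): 133399 of 133618 matched in every library, 2166 of them with another version number, and the 219 unmatched held 0.117% to 0.161% of reads. Summing over transcripts gave estimated counts of 52609 genes, which were rounded. Pcdha11 is 1 of 99 symbols with more than 1 gene, and 1 of its genes was used. The 6 libraries of IWP2_removed, IWP2 and control entered one edgeR 4.0.16 quasi-likelihood fit in R 4.3.3 with TMM scaling and filterByExpr, which left 17214 genes. Dkk1_KO was left out because its libraries varied far less among themselves. The fit had a common dispersion of 0.0895 (biological coefficient of variation 0.299). A gene was called at a Benjamini-Hochberg adjusted p below 0.05 over all genes tested. Per-letter ratios are log2 of CPM + 0.5 in IWP2_removed over CPM + 0.5 in control, which understates differences of low genes, and carry no test. The fit without a letter term was run on simulated counts with no letter effect, which does not bear on the blocked fit.

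Letters were read from the names of the deposited tables and match the replicate numbers of the labels. Deviations from group means correlated between same-numbered libraries at 0.475 (IWP2_removed and control), 0.52 (IWP2_removed and IWP2) and 0.346 (IWP2 and control). With 2 pairs and no label for the letter this is not a stated pairing, so the blocked fit is an alternative whose adjusted p stands beside each gene, because this comparison is defined by letter. Replicates of a group differed by more than sampling noise (chi-square per degree of freedom 39 in IWP2_removed, 94.4 in IWP2 and 32.9 in control).

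Members, gene lists and tests were chosen with earlier results of these data known. Named genes were Tnnt1, Hoxb9, Kit, Cyp27a1, Igf2 and Dkk1, then the 15 higher and 15 lower genes with the largest smaller ratio in both letters, no overlap and a mean of at least 10 CPM in the higher group, passing over predicted genes and pseudogenes, and the 2 genes with the highest mean of each list. Gm42047, Gdf3, other list members, the Hedgehog list and the threshold for shifted windows were chosen after values were seen. A few list members are counted but not reported here by name. Promoters are from RefSeq (GRCm38.p6). Alternatives used DESeq2 1.42.0 and limma 3.58.1.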

Additional observations from a re-analysis of the deposited data

How the results depend on the processing

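Calls without the letter block were 1 higher and 0 lower. With the replicate block they were 99 higher and 103 lower, with only the 4 compared libraries 5 and 5, with those 4 and the block 780 and 866, with all 9 libraries 121 and 106, with DESeq2 132 and 110, and without a filter on low counts 197 and 229. A transcript length offset gave 2 and 2, limma on log2(TPM + 1) 7 and 7, and limma on log2(TPM + 0.1) 7 and 3. Leaving out 1 library at a time gave 0 to 8 higher and 0 to 5 lower. Outside the shifted windows, an alternative chosen after seeing the data, the block gave 58 and 86. Gm42047, with a log2 fold change of 4.12, ranged from 3.61 to 4.28 and was no longer called in 3 of 18 alternatives, each without 1 of control library B, control library C or IWP2_removed library B.

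Genes at least 2-fold higher in both letters numbered 174, and 269 with a pseudocount of 0.1 CPM and 110 from TPM, both chosen after seeing the data. The count of lower genes, 250, ranged from 182 to 357. Of 84 genes followed through 18 alternatives each, the sign against control turned for 3 genes whose log2 fold change lay near 0. Leaving out 1 library at a time put Ccnd1 between -0.626 and 0.482, Axin2 between -0.258 and 0.103 and Gdf3 between -0.229 and 0.25. With the length offset Axin2 was at 0.101 and Gdf3 at -0.0482, and Gdf3 was at -0.133 with limma on log2(TPM + 1) and at -0.14 on log2(TPM + 0.1). The 6 chromosome stretches kept their sign in all 108 alternatives. Against IWP2, 1 gene was called higher and 0 lower. All alternatives of this contrast were chosen after seeing the data. All 9 libraries gave 7 higher and 4 lower, DESeq2 36 and 40, and no filter 71 and 138. The replicate block gave 2 higher and 0 lower, and limma gave 1 higher and 1 lower with either pseudocount. The higher gene was not Gdf3, which limma no longer called (log2 fold change 3.22 with log2(TPM + 1) and 4.36 with log2(TPM + 0.1)). Leaving out 1 library gave 0 higher and 0 lower each time. The cause of these changes was not tested. With 2 libraries a group, low counts limit single genes: a level under 1 CPM rests on fewer than 20 reads.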
